A study of Mus musculus with 6 samples.

Results

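Glycogen is the branched glucose store of animal cells. Glycogenin (Gyg) primes each particle, glycogen synthase (Gys1 in muscle and most tissues, Gys2 in liver) lengthens the chains and the branching enzyme Gbe1 adds branch points, while glycogen phosphorylase (Pygl of liver, Pygm of muscle, Pygb of brain) releases glucose 1-phosphate. Phosphorylation switches the synthase off and the phosphorylase on, and the subunits Ppp1r3b (GL) and Ppp1r3c (PTG) bring protein phosphatase 1 to glycogen, where it reverses both. Fat cells hold a small store of glycogen, and brown fat is also known for its high uptake of glucose.

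These 9 genes were described in the array data as probe sets that carry one of their symbols, current or older, in the platform annotation. They were 12 of the 45037 probe sets and 9 of the 18193 genes named. The genes were proposed with the difference between the tissues already known, so their signals and differences are a description and were given no test.

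Interscapular brown and epididymal white fat were taken from 3 untreated male C57BL/6 mice aged 10 to 12 weeks and kept at ambient temperature. Each of the 6 tissue samples had an Affymetrix array of its own, with 3 arrays per tissue. Whole tissue was used, so other cells of the depots are included, and fewer cells of a type and less RNA per cell cannot be told apart. All brown tissue came from between the shoulder blades and all white tissue from beside the epididymis, so fat type and depot cannot be told apart either.

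The arrays called 35.6% to 37.5% of probe sets present in brown and 45.2% to 45.8% in white. The ratio of 3′ to 5′ actin control signal, a measure of RNA quality, was 1.36 to 2.24 in brown and 1.19 to 1.73 in white. It was highest on brown replicate 2, and the part of RNA quality in the differences was not tested. The median deposited signal was 37.6 to 39.4 in brown and 52.1 to 52.5 in white, and signals were therefore quantile-normalised before use. The 6 brown adipocyte markers, among them Ucp1 and Cidea, were called present on all brown arrays, and their summed signal was 29447 to 30237 in brown against 148 to 302 in white. The 5 white adipocyte markers, among them Lep and Retn, summed to 1344 to 1458 in brown and 29270 to 30834 in white. The deposited table of the whole series runs the other way: the log2 signals of its columns correlated at 0.816 to 0.875 with the array files of the opposite tissue and at 0.780 to 0.796 with those of the same tissue name. It was not used for any value below. Because the array files were preferred for the direction of Ucp1, Cidea and Lep, those genes are no independent check. All signals are on the normalised linear scale, as mean ± SD with n = 3, all differences are brown minus white on the log2 scale with their standard error (SE), and signals of different genes were not compared as levels. Where one is subtracted from another on the same array, only the gap between tissues is read.

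Pygl and Pygb were measured to go opposite ways, and Pygm was not detected. The part of their start regions in this was not tested. These regions are shown as a description. Each is the RefSeq promoter window of GRCm38.p6, from 250 bases before the start to 50 after, 5′ to 3′ on the gene's strand, and capitals mark the motifs found. Pygl lies at chr12:70227634-70227933 on the minus strand, Pygb at chr2:150786546-150786845 on the plus strand and Pygm at chr19:6384158-6384457 on the plus strand.
Pygl: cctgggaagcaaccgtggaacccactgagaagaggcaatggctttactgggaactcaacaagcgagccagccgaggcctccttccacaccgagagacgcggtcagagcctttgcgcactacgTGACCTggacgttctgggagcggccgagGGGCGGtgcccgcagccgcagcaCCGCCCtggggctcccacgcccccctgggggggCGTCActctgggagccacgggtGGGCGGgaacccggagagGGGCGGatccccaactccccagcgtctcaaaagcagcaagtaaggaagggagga
Pygb: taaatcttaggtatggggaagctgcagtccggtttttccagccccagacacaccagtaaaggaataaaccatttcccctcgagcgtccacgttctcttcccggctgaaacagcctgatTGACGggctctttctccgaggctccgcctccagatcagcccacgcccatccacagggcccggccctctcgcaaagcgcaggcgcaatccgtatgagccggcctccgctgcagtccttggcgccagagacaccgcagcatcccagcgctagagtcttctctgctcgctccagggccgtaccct
Pygm: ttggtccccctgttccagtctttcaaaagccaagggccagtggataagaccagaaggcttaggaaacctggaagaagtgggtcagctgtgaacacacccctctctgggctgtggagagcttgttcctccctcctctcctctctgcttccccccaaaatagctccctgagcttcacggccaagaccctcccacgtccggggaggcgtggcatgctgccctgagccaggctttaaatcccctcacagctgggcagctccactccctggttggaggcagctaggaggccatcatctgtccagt

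Both strands were searched for the cAMP response element TGACGTCA and its short core TGACG, for the E-box CACGTG, for the core AGGTCA bound by many nuclear receptors, for the CCAAT box, for the GC box GGGCGG, for the C/EBP site TTGCGCAA and for the TATA box TATAAA. The core TGACG is part of the full element, and each of the other motifs was counted for itself. The Pygl window held 4 GC boxes, 1 AGGTCA core and 1 TGACG core. The Pygb window held 1 TGACG core and no other motif of the set, and the Pygm window held none of them. Over 32851 promoter windows of this length, 35.7% held a GC box, 16.3% the AGGTCA core and 20.8% the TGACG core. The G and C content was 67.0% for Pygl, 60.7% for Pygb and 58.7% for Pygm, where the median window had 52.7%. Such matches describe the letters of these windows only. Of the 9 genes, 7 had a window in the table. In the other windows, Gyg held 1 E-box, 1 GC box and 1 TGACG core, and Gbe1 held 1 GC box. Ppp1r3c held 1 E-box and 2 CCAAT boxes, and Gys1 held 4 CCAAT boxes and 3 GC boxes. Of all windows, 7.15% held an E-box and 37.4% a CCAAT box.

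Among the genes that build glycogen, the liver form of the synthase differed most. Gys2 had signals of 486, 547 and 486 on the brown arrays and 55.4, 13.8 and 46.9 on the white arrays. It was called present on all brown arrays, marginal on white replicate 1 and absent on the other white arrays, so no white array called it present. The groups did not overlap, and the log2 difference was 3.94 (SE 0.64), a 15.3-fold ratio of geometric means. The low signal of white replicate 2 widened this value. Without that array the log2 difference was 3.31, and with 64 signal units added before the log it was 2.49.

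Gys1, the form of the synthase found in muscle and most other tissues, was detected on every array in both tissues. Its brighter probe set, 1416737_at, had signals of 1568, 1357 and 1459 in brown and 629, 839 and 791 in white. The brown arrays lay above all white arrays, at a log2 difference of 0.97 (SE 0.14). The second probe set, 1450196_s_at, gave 271 ± 64.8 in brown and 151 ± 32.8 in white and a difference of 0.84 (SE 0.29). Its lowest brown array, replicate 2 at 198, stood only a little above the highest white array, at 180.

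The branching enzyme Gbe1 had signals of 830, 852 and 864 in brown and 163, 198 and 265 in white, and was present on all arrays. The brown arrays were close together and the white arrays spread more. The log2 difference was 2.05 (SE 0.20), or 4.15-fold.

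Glycogenin, the self-glucosylating primer, differed least among the members detected in both tissues by its brighter probe set only. By its other probe set it differed more than Gys1 did by either of its own (0.97 and 0.84). Gyg probe set 1459522_s_at had signals of 1716, 1638 and 1603 in brown and 1200, 984 and 1096 in white, a difference of 0.60 (SE 0.09). The other probe set, 1448429_at, gave 1133 ± 63.0 against 555 ± 43.9 and a larger difference of 1.03 (SE 0.08). Both put every brown array above every white array. The mean over both probe sets gave 0.82.

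**Figure D1:**
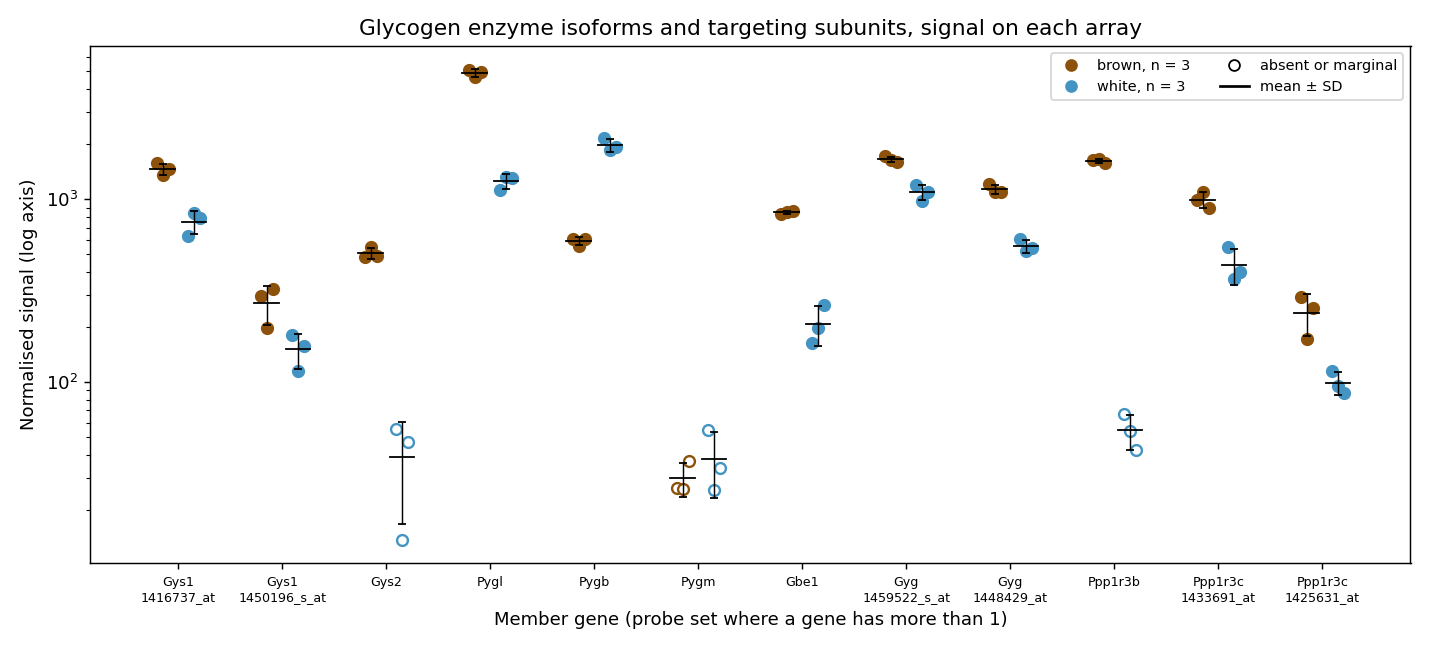
Normalised signal (log axis) of each of the 12 member probe sets on the 3 brown and 3 white arrays, with filled points for present calls, open points for absent or marginal calls, and bars for mean ± SD. Brown lies above white for Gys1, Gys2, Pygl, Gbe1, Gyg, Ppp1r3b and Ppp1r3c, white lies above brown for Pygb, and the points of Pygm are all open and overlap.

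Among the enzymes that break glycogen down, the liver and brain forms of phosphorylase ran in opposite directions. Pygl, the liver form, had signals of 5077, 4648 and 4974 in brown and 1122, 1325 and 1310 in white, a difference of 1.97 (SE 0.09) or 3.92-fold. Pygb, the brain form, had 609, 554 and 608 in brown and 2152, 1857 and 1924 in white, a difference of -1.74 (SE 0.08), or 3.35-fold towards white. Both were present on all arrays, and neither overlapped between tissues. Pygb was the 1 member with every white array above every brown array.

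The muscle form Pygm was called absent on all 6 arrays. Its signals were 26.4, 26.0 and 37.1 in brown and 54.9, 25.7 and 34.0 in white, which overlap, and no ratio is given. No level of Pygm was detectable at this sensitivity in either tissue.

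The targeting subunit Ppp1r3b, known as GL and best studied in liver, had the largest difference of the members. Its signals were 1630, 1656 and 1571 in brown and 66.6, 54.1 and 42.8 in white. It was present on all brown arrays and absent on all white arrays. On quantile-normalised values the ratio was therefore given as at least 30.2-fold. It was set against the higher of each white array's own signal and the lowest signal called present there (5.50, 3.72 and 4.01). The own signal was the higher on every white array, so this is the plain ratio of geometric means. The value holds for this scaling only. The difference of 4.92 (SE 0.19) was 4.57 with the deposited and spike-in scalings and fell to 3.83 with 64 signal units added.

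Ppp1r3c, the more widely expressed subunit also called PTG, differed far less. Probe set 1433691_at had signals of 987, 1092 and 897 in brown and 550, 366 and 398 in white, a difference of 1.20 (SE 0.20). Probe set 1425631_at was dimmer, at 240 ± 61.7 against 98.9 ± 14.2, with a difference of 1.25 (SE 0.26). Both probe sets were present on all arrays and did not overlap between tissues.

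Over the members, 8 of 9 had the 3 or more present calls, out of 6, that were asked for and so entered the test across all probe sets, Pygm being the exception. Gys2 and Ppp1r3b passed that filter through the brown arrays alone. Of these 8, 7 had all brown arrays above all white arrays and 1 the reverse, where 67.3% of the 10264 genes tested had arrays that did not overlap (31.3% with brown above white and 36.0% with white above brown). The genes were chosen on this contrast, and nothing is read from these counts.

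The differences depend on how the arrays are scaled, since the whole set of tested probe sets had a median of -0.06 on quantile-normalised values, -0.08 when each array was centred on its median, -0.53 as deposited and -0.53 when set to the spike-in controls. Each of the 8 members detected kept its direction under these 4 scalings. With the deposited scaling Pygl had 1.88, Pygb -2.04, Gbe1 1.61, Gys2 3.48 and Ppp1r3b 4.57. Of these, the difference of Pygb grew and the others shrank. Those of the remaining members detected shrank too. They were 0.65 and 0.31 for the Gys1 probe sets, 0.32 and 0.68 for those of Gyg and 0.81 and 0.72 for those of Ppp1r3c.

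**Figure D2:**
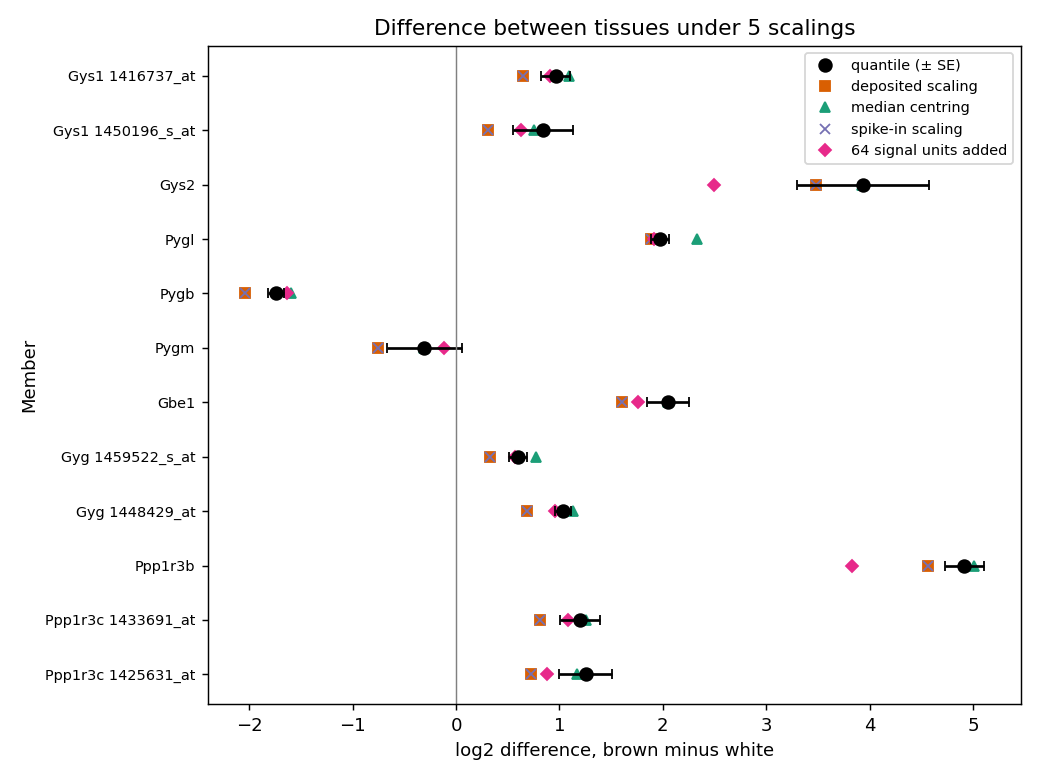
Log2 difference, brown minus white, of each member probe set after quantile normalisation (black, with SE) and under 4 other settings. Points of 1 probe set keep to the same side of 0, though the SE of Pygm, absent on all arrays, crosses it; Gys2 and Ppp1r3b move most with 64 signal units added, to 2.49 and 3.83.

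A difference between isoforms on the same array does not depend on a scale factor of that array. Quantile normalisation is more than such a factor, and the values here are quantile-normalised unless another scaling is named. The log2 signal of Pygl minus that of Pygb was 3.06, 3.07 and 3.03 on the brown arrays and -0.94, -0.49 and -0.55 on the white arrays. The sizes depend on the probes, but their shift between tissues, 3.71 (SE 0.14), measures unequal change of the liver and brain phosphorylases, 13.1-fold between the tissues. For the targeting subunits, Ppp1r3b minus Ppp1r3c (1433691_at) was 0.71 ± 0.10 in brown and -3.01 ± 0.23 in white, a shift of 3.72 (SE 0.15). Gys2 minus Gys1 (1416737_at) was -1.53 ± 0.20 in brown and -4.50 ± 1.27 in white, a shift of 2.97 (SE 0.74). The white arrays of that synthase pair stood at -3.50, -5.93 and -4.07, and without white replicate 2 the shift was 2.26. With the deposited, median and spike-in scalings alike, the shifts were 3.92 for Pygl minus Pygb, 3.75 for Ppp1r3b minus Ppp1r3c and 2.83 for Gys2 minus Gys1. On quantile-normalised values no array overlapped between tissues in these pairs. Shifts against Pygm, 2.28 for Pygl and -1.44 for Pygb, are set against a probe set called absent throughout and say no more than Pygl and Pygb alone.

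**Figure D3:**
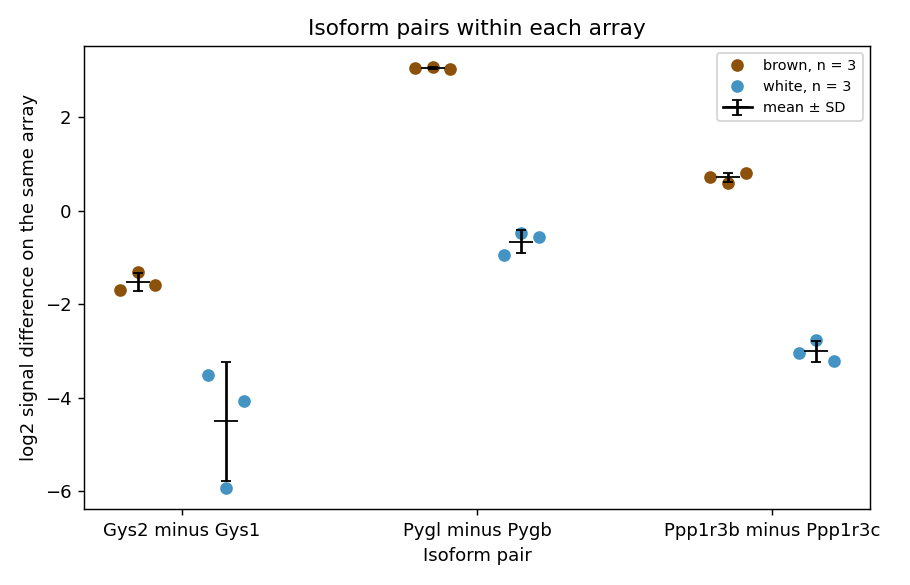
Log2 signal of one isoform minus the other on the same array, for each of 3 pairs (points, 3 brown and 3 white arrays; bars, mean ± SD). The height of a pair depends on its probes and only the gap between tissues is read. On quantile-normalised values that gap is 3.71 for Pygl minus Pygb, 3.72 for Ppp1r3b minus Ppp1r3c and 2.97 for Gys2 minus Gys1.

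The isoforms are named for other tissues, and markers of those tissues were read beside them. Of 9 skeletal muscle markers, 6 were absent on all brown arrays and 8 on all white arrays, and their summed signal was 168 to 556 in brown and 319 to 370 in white. The exceptions were Acta1, skeletal muscle actin, present on brown replicate 2 and on all white arrays, and the fast myosins Myh1 and Myh4, present on brown replicates 1 and 2 and absent on all white arrays. Of 6 hepatocyte markers, 4 were absent on all brown arrays and 3 on all white arrays (Apoa1, Ahsg and Fgb on all arrays of both). They summed to 122 to 170 in brown and 160 to 191 in white. Alb was present on brown replicates 2 and 3 and on white replicates 1 and 2. It was called higher in white (-0.97, limma adjusted p = 0.0059). F2 was present on white replicate 1 only. The part of muscle and liver cells in the differences of the members was not tested.

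The 6 macrophage and neutrophil markers were present on all arrays and summed to 1869 to 2442 in brown and 11525 to 11814 in white, higher in white as Pygb was. Most of the sum came from Csf1r and Lyz2, while the neutrophil markers S100a8 and S100a9 had differences of 0.46 and 0.73 and were not called (limma adjusted p = 0.14 and 0.095). Of 5 Schwann cell and nerve markers 3 had a probe set of their own. These summed to 875 to 960 in brown and 203 to 215 in white, opposite to Pygb. Most of the brown sum came from S100b, at 567 against 22.3 in white. Mbp had a difference of 1.27, while Sox10 had 0.39, overlapped between tissues and was not called (limma adjusted p = 0.11). The part of immune and nerve cells in the differences of the members was not tested.

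The arrays also cover other genes of glycogen metabolism, a list of 29 that had no part in choosing the members. This list too was drawn up with earlier results of these data known. Of these, 22 were tested and 6 were not called present often enough. With limma's adjusted threshold of 0.05 over all genes, 8 were higher in brown, 7 were higher in white and 7 were not called, against shares over all genes of 28.2% for brown, 32.7% for white and 61.0% in either direction. The median difference of the list was 0.11, and that of all genes tested was -0.04. The split moved with the scaling, to 6 and 10 with the deposited scaling, 4 and 10 with spike-in scaling and 8 and 6 with median centring. Probe sets as a whole moved likewise. Of all 19819, 54.5% were called, 24.6% (4885) towards brown and 29.9% (5924) towards white, and the deposited scaling gave 2535 against 10785 and spike-in scaling 2295 against 10112.

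All 5 genes tested on the phosphatase side of the list were called, 2 towards brown and 3 towards white. Of all genes tested, 61.0% were called, so nothing is read from a count this small. Ppp1r3d, a targeting subunit of the same family as Ppp1r3b and Ppp1r3c, had signals of 425, 373 and 391 in brown and 93.3, 104 and 97.5 in white. It was higher in brown by 2.01 (SE 0.12; limma adjusted p = 2.7e-07), and all brown arrays lay above all white arrays. Ppp1r3e, another targeting subunit, went the other way at 163 ± 30.8 against 361 ± 14.0 (difference -1.16, SE 0.15, limma adjusted p = 6.9e-05), though its second probe set gave -0.04. Ppp1r3a, Ppp1r3f and Ppp1r3g were not called present often enough to be tested. The catalytic subunits of the phosphatase were divided: Ppp1cb was higher in brown by 0.83 (limma adjusted p = 4.8e-06), and Ppp1ca was higher in white at -0.46 (limma adjusted p = 0.00042). Ppp1cc was also higher in white at -0.35, a call lost with median centring (-0.19, limma adjusted p = 0.070) and with the mean over its probe sets (-0.18, limma adjusted p = 0.099); over its alternatives the adjusted p ran from 6.0e-05 to 0.099.

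Phosphorylase kinase, which switches phosphorylase on, had subunits in both directions. The muscle alpha subunit Phka1 was higher in brown, at 218 ± 25.2 against 119 ± 10.9 (difference 0.87, SE 0.14, limma adjusted p = 0.00044), and the liver alpha subunit Phka2 was higher in white, at 691 ± 10.6 against 984 ± 35.2 (-0.51, SE 0.07, limma adjusted p = 0.00012). The Phka1 call was lost with the deposited scaling (0.33, limma adjusted p = 0.069) and spike-in scaling (0.33, limma adjusted p = 0.14), and its adjusted p was 0.00023 at the lowest. Other Phka1 probe sets gave 0.71 and 0.26, the latter not called (limma adjusted p = 0.40 over probe sets). The second Phka2 probe set gave -0.61 and was not called (limma adjusted p = 0.073 over probe sets). The catalytic gamma subunit Phkg1 was absent on all brown arrays and, on quantile-normalised values, at least 2.84-fold higher in white (limma adjusted p = 0.00021). That probe set entered the test through the white arrays alone, so nothing further is read from its p-value. Its suffix marks possible cross-hybridisation. The other Phkg1 probe set, also absent on all brown arrays, gave -3.12. Its brown mean was 8.07, where the lowest signals called present on the brown arrays were 6.79, 7.49 and 9.03. Phkg2, the liver gamma subunit, was not called at 0.13 (95% interval -0.18 to 0.45), and it was called higher in white with the deposited scaling (-0.41). The beta subunit Phkb was higher in brown by 0.37 (limma adjusted p = 0.015). That call was lost without brown replicate 1 (0.33, limma adjusted p = 0.0503) and without white replicate 2 (0.32, limma adjusted p = 0.059), and the direction turned with the deposited scaling (-0.13). Over the alternatives for Phkb the adjusted p ran from 0.0095 to 0.51.

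All 4 kinase genes of the list were called, 2 in each direction, where 61.0% of all genes tested were called. Gsk3a, a kinase that inactivates glycogen synthase, was higher in brown at 1367 ± 172 against 818 ± 156 (difference 0.75, SE 0.14, limma adjusted p = 0.0011). Its relative Gsk3b was higher in white at 505 ± 35.2 against 705 ± 28.9 (-0.48, SE 0.08, limma adjusted p = 0.00070), but of its other tested probe sets one was called towards brown (0.35, limma adjusted p = 0.027 over probe sets) and the others gave -1.23 and -0.13. The mean over all of them was -0.37 and not called (limma adjusted p = 0.064, with 1.4e-05 the lowest over its alternatives). Prkab1, a beta subunit of AMP-activated protein kinase with a glycogen-binding domain, was higher in brown at 385 ± 26.7 against 197 ± 3.44 (0.97, SE 0.10, limma adjusted p = 2.0e-05). Prkab2, the other beta subunit, was higher in white at 99.1 against 159 (-0.67, limma adjusted p = 0.0053) by a probe set that was absent on all brown arrays. That probe set entered the test through the white arrays alone. Of the other tested probe sets of Prkab2, that present on all arrays gave -1.08 and that absent on all brown arrays gave -0.16.

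Of the 4 genes tested for synthesis and sugar phosphates, 2 were called, both towards brown, where 28.2% of all genes tested were called that way. Ugp2, which makes UDP-glucose, had 1671 ± 212 against 1157 ± 129 (0.53, SE 0.11, limma adjusted p = 0.0017), and the phosphoglucomutase Pgm1, listed as Pgm2 in older annotation, had 1247 ± 35.0 against 838 ± 40.0 (0.57, SE 0.07, limma adjusted p = 4.8e-05). The second Pgm1 probe set gave 0.34 and was not called (limma adjusted p = 0.15 over probe sets). The other Ugp2 probe sets gave 0.17 (not called, limma adjusted p = 0.30 over probe sets), 0.46, 0.54 and 1.23. With spike-in scaling neither gene was called, Ugp2 at 0.26 (limma adjusted p = 0.13) and Pgm1 at 0.25 (limma adjusted p = 0.083). The lowest adjusted p over their alternatives was 0.00020 for Ugp2 and 1.4e-05 for Pgm1. Ugp2, Pgm1, Phkb, Ppp1ca and Ppp1cc were named after their values were seen. Genes not called were named by their mean signal. They included Gaa, the lysosomal glucosidase (0.08, 95% interval -0.31 to 0.47), Epm2aip1, which binds laforin (-0.15, -0.38 to 0.09), and Slc37a4, the glucose 6-phosphate carrier (0.00, -0.37 to 0.38). The Gaa probe set used was present on no brown array and entered the test through the white arrays alone. The Gaa probe set present on all 6 arrays gave -0.38 and was called higher in white (limma adjusted p = 0.026 over probe sets). Slc37a4 and Epm2aip1 were called higher in white with the deposited scaling, at -0.51 and -0.61.

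**Figure D4:**
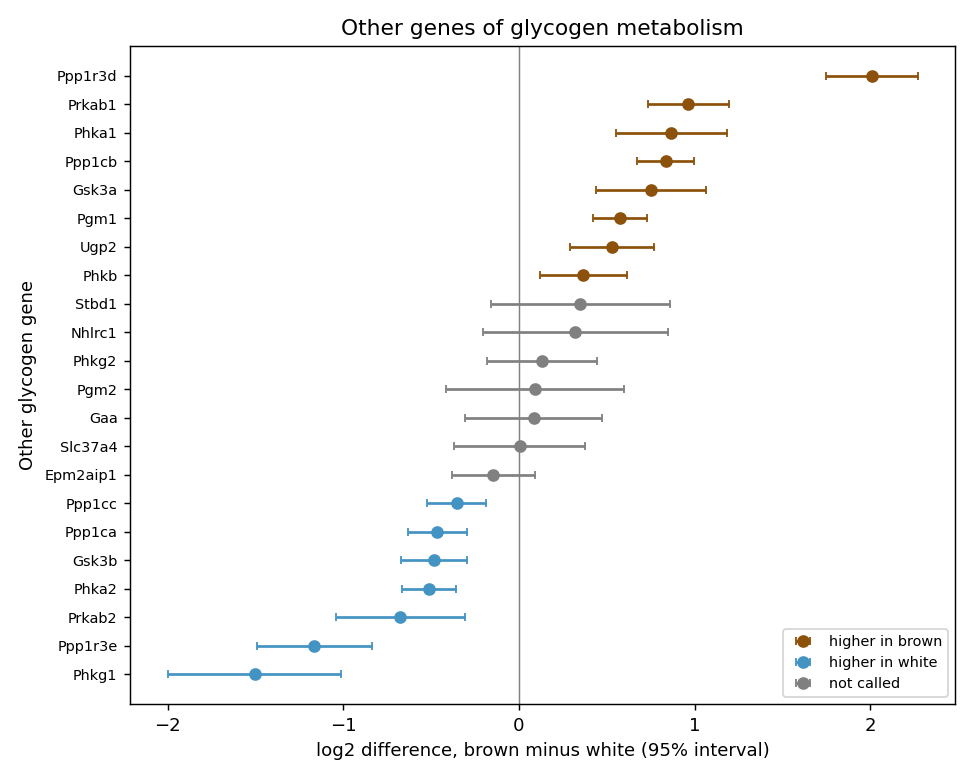
Log2 difference, brown minus white, with its 95% interval from limma, for the 22 other glycogen genes tested (1 probe set per gene, 3 arrays per tissue), coloured by call. Ppp1r3d lies farthest towards brown at 2.01 and Phkg1 farthest towards white at -1.50, with 7 genes in grey that were not called.

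The genes most like Ppp1r3b, by the root mean square distance between log2 signals centred on their own mean over the 6 arrays, were Coq8a (distance 0.24, 5943 ± 352 in brown and 165 ± 17.0 in white), 9130214F15Rik (0.24) and Pank1 (0.24, 2134 ± 39.8 and 57.4 ± 5.72). Coq8a is a mitochondrial protein needed for coenzyme Q synthesis and Pank1 starts coenzyme A synthesis. The genes most like Pygb were Rbpj (0.06, 183 ± 20.3 in brown and 602 ± 47.0 in white), Tead1 (0.06, 185 ± 10.3 and 586 ± 41.6) and Htra1 (0.06, 491 ± 18.4 and 1604 ± 60.5). Rbpj and Tead1 are transcription factors and Htra1 is a secreted protease. With 2 tissues and 3 arrays each, this likeness mostly restates the size of the difference.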

How the data were processed

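The authors deposited 1 file per array, which, per the file headers, gives a linear signal intensity, a detection call and a detection p-value for each of 45101 probe sets; for software, scaling and genome build the sources used here give nothing. After 64 control probe sets were left out, 34945 probe sets had 1 gene symbol in the platform annotation, 932 several and 9160 none. The 1 signal of 0 was set to 0.1. Log2 signals were quantile-normalised, and probe sets present on at least 3 of 6 arrays entered a linear model in limma 3.58.1 under R 4.3.3 (lmFit, eBayes with trend), adjusted by Benjamini-Hochberg at 0.05. For genes, the probe set with the highest mean log2 signal was used and the adjustment repeated. The fit was tested on simulated data. A ratio is given as a lower bound, for quantile-normalised values only, where the dimmer tissue had absent calls only. Samples were grouped by title. That they came from separate mice in each tissue rests on the design text.

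Members and lists were chosen with earlier results of these data known. Named were all members, up to 5 other glycogen genes with the largest difference called in each direction (the report says which were added), up to 4 not called with the highest signal, and 3 genes nearest in pattern to the members with the largest difference each way. Alternatives covered scaling (deposited, median, 18 spike-in probe sets), 64 signal units added, the detection filter, probe set choice, a replicate block and leaving out each array with the same probe sets tested. 1 gene of the list is not reported here. The precision is limited by 3 arrays per tissue.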

Additional observations from a re-analysis of the deposited data

How the results depend on the processing

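The 8 members detected kept their direction under the alternatives run. Gys2 and Ppp1r3b had no value with presence on all 6 arrays, and Pygm, absent throughout, has no direction to keep. Of the other glycogen genes, 8 were called towards brown and 7 towards white, and with spike-in scaling 4 were called towards brown. Their median difference, 0.11, was -0.39 as deposited, -0.39 when scaled to the spike-in controls, 0.32 with presence on all 6 arrays and 0.34 with no detection filter. Signs turned as deposited and by spike-in controls for Slc37a4 (-0.51 and -0.51), Phkb (-0.13 and -0.13), Phkg2 (-0.41 and -0.41), Gaa (-0.37 and -0.37), Pgm2 (-0.43 and -0.43), Stbd1 (-0.16 and -0.16) and Nhlrc1 (-0.14 and -0.14). They also turned for Slc37a4 with median centring (-0.065) and for Gaa with presence on all 6 arrays (-0.38, where another probe set stood for the gene) and with the mean over its probe sets (-0.15). Of these genes Phkb alone was called in the first place. With 1 array left out, Slc37a4 ran from -0.16 to 0.11, Gaa from -0.12 to 0.25 and Pgm2 from -0.073 to 0.31. The cause of the turns with scaling was not tested beyond the shift of all probe sets given with them. Over all probe sets the deposited values gave 2535 calls towards brown and 10785 towards white, spike-in scaling gave 2295 and 10112, and presence on all 6 arrays, which left fewer to test, gave 4100 towards brown and 3944 towards white, so that brown led there. The shift of Gys2 against Gys1 was 1.59 and that of Ppp1r3b against Ppp1r3c 2.74 with 64 signal units added, which by construction shrinks differences of dim probe sets. The shift of Pygl against Pygb was 3.92 as deposited, 3.92 with median centring and 3.92 by spike-in controls. Both tissues came from 3 mice, but the labels do not say that a replicate number marks a mouse, and the arrays of a number did not deviate together: deviations from the tissue means correlated at 0.02, -0.01 and -0.05 for numbers 1, 2 and 3. Not every array correlated best with its own number. A fit with the replicate block called 4706 probe sets towards brown and 5762 towards white, and of the other glycogen genes 8 and 7. Detection limits Gys2 and Ppp1r3b in white and Pygm in both tissues, where no array called them present.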
